A study of Mus musculus with 20 samples.

Results

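The glutathione and antioxidant enzyme genes of the mouse ventricle were read on the probes of an Illumina bead array whose annotated symbol begins with Gsta, Gstm, Gstp, Gstt, Gsto, Gstk, Gstz, Gpx, Prdx, Txn or Sod followed by a number, or is Cat, Nqo1, Gclc, Gclm, Gsr, Nfe2l2 or Keap1. This rule took 82 of the 45281 probes, which name 45 of the 19057 genes named on the array. The rule uses symbols only and no measured value. *Gsr*, *Prdx5* and *Prdx6* are not analysed here, since no probe naming 1 of them alone was found. Probes naming several genes were not used. Left ventricular total RNA came from 4 groups of male mice: 6 TAC DKO, 6 TAC CTL, 4 sham DKO and 4 sham CTL, with 1 array per mouse.

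DKO mice lacked an exon of the catalytic domain in both de novo DNA methyltransferase genes, *Dnmt3a* and *Dnmt3b*, which a Cre recombinase driven by the *Myl7* (MLC2a) promoter cut from floxed alleles in cardiomyocytes. Per the study's methods and text, recombination did not reach every cardiomyocyte nucleus. CTL mice carried the same floxed alleles without Cre. TAC mice underwent constriction of the transverse aorta at 10 to 12 weeks of age, which overloads the left ventricle with pressure, and sham mice went through surgery without it. Tissue was taken after 4 weeks, at 14 to 16 weeks of age. The other cells of the ventricle keep their methyltransferases in DKO mice, and all RNA was from bulk tissue, in which fewer cells of a type and less RNA per cell cannot be told apart.

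Cells remove superoxide with superoxide dismutases, which turn it into hydrogen peroxide. Catalase, the glutathione peroxidases and the peroxiredoxins then break the peroxide down, the peroxidases with electrons from glutathione and most peroxiredoxins with electrons from thioredoxin. Glutathione is made in a first, rate-limiting step by glutamate-cysteine ligase, an enzyme of a catalytic (*Gclc*) and a modifier (*Gclm*) subunit, and glutathione S-transferases attach it to reactive lipids and foreign compounds. The transcription factor Nfe2l2 (Nrf2) raises many of these genes through the antioxidant response element in their promoters, and Keap1 holds it back until oxidants or electrophiles modify Keap1.

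The core of that element (TGACNNNGC, on either strand) was looked for in the RefSeq promoter windows, 300 bases around each gene start in build GRCm38.p6. Of the 45 genes 41 had a window, with 52 windows in all, and 7 windows of 7 genes held the core, 13.46% against 12.39% of all 32851 windows. The 7 stretches are shown because the genes behind them include some that rose, some that fell and some that did not pass the test after TAC. Capitals mark the core, and each stretch runs 5′ to 3′ on the strand of the gene. A match describes letters in a window and says nothing of binding.
*Gclm* (chr3:122245403-122245451, plus strand): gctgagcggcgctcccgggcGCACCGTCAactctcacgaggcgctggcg
*Prdx1* (chr4:116685446-116685494, plus strand): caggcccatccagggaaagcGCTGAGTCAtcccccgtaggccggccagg
*Sod1* (chr16:90220686-90220734, plus strand): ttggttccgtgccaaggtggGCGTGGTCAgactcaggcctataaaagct
*Gstm5* (chr3:107895792-107895840, plus strand): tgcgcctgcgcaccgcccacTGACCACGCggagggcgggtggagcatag
*Gsta3* (chr1:21240444-21240492, plus strand): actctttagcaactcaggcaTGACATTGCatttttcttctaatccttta
*Gstm7* (chr3:107931715-107931763, minus strand): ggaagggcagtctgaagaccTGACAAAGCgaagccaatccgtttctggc
*Nfe2l2* (chr2:75704875-75704913, minus strand): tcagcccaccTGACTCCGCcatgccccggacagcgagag

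The arrays hold intensities, which compare a probe with itself across arrays but not with another probe. Values below are normalized intensities. For the groups of 6 arrays the lowest, the median and the highest are given, and for the groups of 4 every array in the order of the replicate numbers. Where a gene has several probes the one with the highest mean stands for it, which leaves 21 genes with 1 probe and 24 with several, up to 5 for *Keap1*. A probe passed at an adjusted p (limma, Benjamini-Hochberg over all 45281 probes) under 0.05, and was called where its fold change also exceeded 1.5. Fold changes are log2 differences ± SE. A probe whose mean over all arrays reached 89.6, the 75th percentile of all probes, was taken as clearly above background. This held for 46 of the 82 probes and 34 of the 45 genes. The precision of a single array value is not known, and the number of arrays limits that of the comparisons.

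The cardiomyocyte markers *Myl2*, *Actc1* and *Myh6* had means far above that level, and the adipocyte markers were all below it. The 3 probes of *Dnmt3a* and 1 of 2 probes of *Dnmt3b* were near background in every group. The other *Dnmt3b* probe, just above the level, was lower in sham DKO than in sham CTL hearts without overlap but did not pass (-0.15 ± 0.08, adjusted p = 0.92), and after TAC it gave 0.06 ± 0.07 (adjusted p = 0.84). Whether these probes lie in the deleted exons was not examined, so the arrays do not check the deletion. TAC and sham arrays reached the deposit as separately normalized sets whose medians differ by 0.30 on the log2 scale, so the set and the surgery cannot be told apart. Sham CTL replicate 4 stood apart from its group, with a median correlation of 0.982 to the other 3 arrays, against 0.991 to 0.993 for every other sham array. Its values are therefore pointed out below. TAC DKO replicates 2 and 3 had high atrial markers.

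TAC moved many of these genes in DKO hearts and in CTL hearts, in both directions (plot of the TAC effect by gene). In DKO hearts 39 of the 82 probes passed, against 28% of all probes, with 15 higher (15.4% of all probes) and 24 lower (12.7%). There 17 were called, against 6.74%, with 6 higher (2.46% of all probes) and 11 lower (4.27%). In CTL hearts 36 probes passed, against 22% of all probes, with 14 higher (11.7% of all probes) and 22 lower (10.2%). There 15 were called, against 5.17%, with 6 higher (1.76% of all probes) and 9 lower (3.4%). Among probes clearly above background the members stood near the rest of the array, with 58.7% of 46 passing in DKO hearts and 58.7% in CTL hearts, against 59.8% and 51.9% of 11320 probes. Most calls were on such probes, with 6 higher and 9 lower in DKO hearts and 6 higher and 7 lower in CTL hearts. The share called among all probes of that brightness is not given, so the shares of calls above are not matched for brightness. Counted by gene, 13 rose and 9 fell in DKO hearts, and 13 rose and 9 fell in CTL hearts. In all, 11 genes rose in both genotypes while 8 fell in both. These comparisons share no arrays, but they share the normalization, the estimate of the spread and the difference between the TAC and sham sets. The median log2 change over the 45 genes was 0.02 in DKO hearts and 0.01 in CTL hearts, against 0.02 and 0.01 over all probes. Over the 34 genes clearly above background it was 0.07 in both, against 0.10 and 0.09 over all probes of that brightness. The peroxidases lay at the upper end, and *Txn1*, *Cat* and the second probe of *Gstk1* at the lower end. Without sham CTL replicate 4 the calls in CTL hearts were 2 higher and 9 lower, against 6 higher and 9 lower with it.

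The rises depended on how the arrays were scaled, and the falls kept passing in both scalings. A common median moves bright TAC probes down, which favours falls over rises. Deposited medians were 47.5 in sham and 58.6 in TAC arrays, below the level clearly above background. On the log2 scale the sets were closer at the top, with highest values of 30712 and 32486. In CTL hearts the bright *Gpx1* went from 1.13 to 0.65, but the dim *Gclc* only from -0.26 to -0.31. This scaling alone therefore cannot decide which rises hold. With every array set to a common median in place of quantile normalization, 3 member probes passed higher and 43 lower in DKO hearts, and likewise 3 and 43 in CTL hearts. Called probes were then 2 higher and 21 lower in each genotype. Of the 13 genes that rose in DKO hearts *Gpx1* (0.61), *Gpx3* (0.68) and *Sod3* (0.43) still passed, 6 no longer passed and 4 turned negative. Of the 13 that rose in CTL hearts *Gpx1* (0.65) and *Gpx3* (0.68) still passed, 6 no longer passed and 5 turned negative. The 9 falls in DKO hearts and the 9 in CTL hearts all passed. Values as deposited, in which the TAC set is higher as a whole, had 30 members pass as higher and 22 as lower in DKO hearts and 30 as higher and 21 as lower in CTL hearts. With these values 6 of the 45 gene results that passed in the main fit no longer did.

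**Figure D1:**
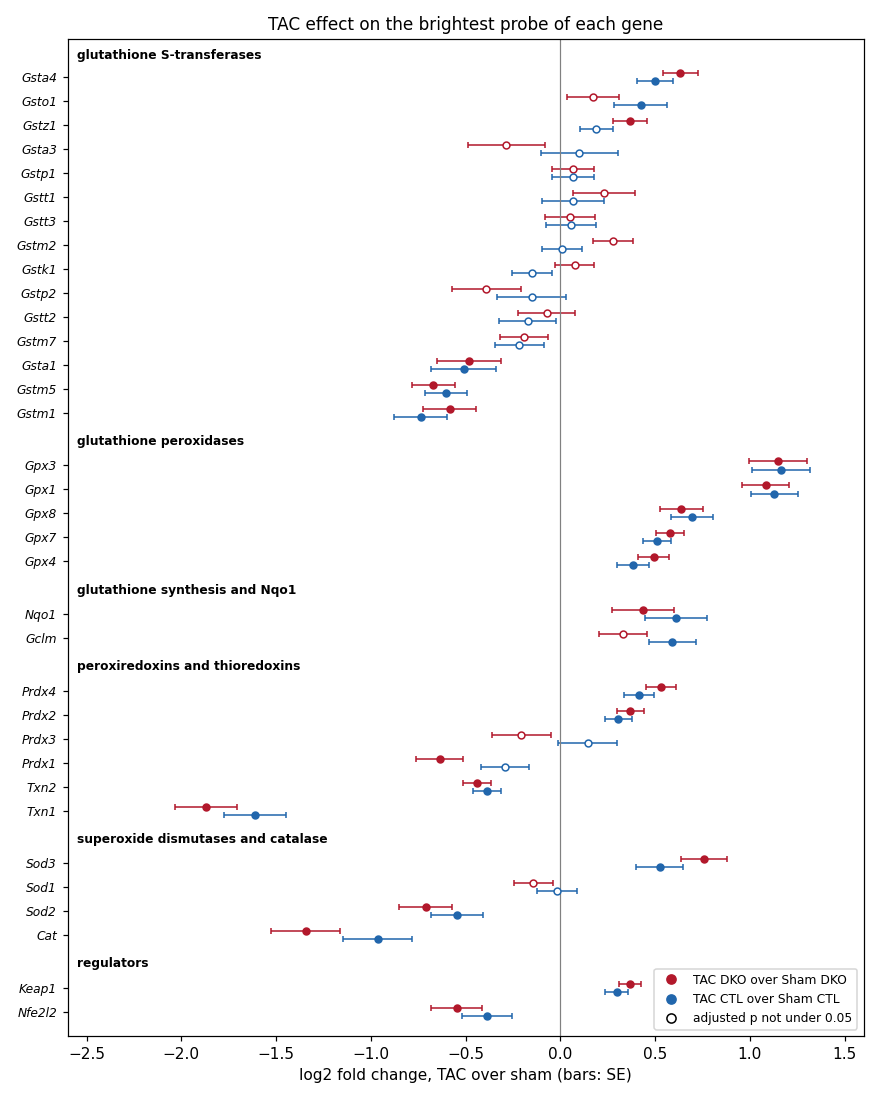
Log2 fold change of TAC over sham hearts (x axis, bars are SE) for the brightest probe of the 34 genes clearly above background, grouped by family, with DKO hearts in red (n = 6 and 4) and CTL hearts in blue (n = 6 and 4); open points did not pass. *Gpx3* and *Gpx1* show the largest rises in both genotypes and *Txn1* the largest falls (-1.87 and -1.61), while scaling of the arrays to a common median turned the rises of *Gsto1*, *Gpx4*, *Prdx2*, *Prdx4* and *Keap1* in CTL hearts and of *Gstz1*, *Nqo1*, *Prdx2* and *Keap1* in DKO hearts into negative values, of which *Keap1* in CTL hearts (-0.18) passed as a fall.

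Of the 8 glutathione peroxidase genes 5 rose in both genotypes and none fell, of which *Gpx1* and *Gpx3* still passed with a common median per array. These 62.5% of genes, all higher, stand beside 15.4% of all probes that passed as higher in DKO hearts and 11.7% in CTL hearts. The genes that rose were all clearly above background, where 59.8% and 51.9% of probes passed, but in either direction. A share of higher passes among such probes is not given, so the excess is not matched for brightness. Counted by probe, 6 of 15 peroxidase probes passed as higher in each genotype, and 1 passed as lower in DKO hearts. The 8 genes had a median change of 0.54 in DKO hearts and 0.45 in CTL hearts. The remaining *Gpx2*, *Gpx5* and *Gpx6* had no probe clearly above background. *Gpx1*, the general peroxidase of cytosol and mitochondria, measured 2086, 2505 and 2804 in TAC DKO hearts, against 1129, 1157, 1098 and 1267 in sham DKO hearts. In CTL hearts *Gpx1* was at 1865, 2263 and 2941 after TAC, against 1085, 1230.5, 1104 and 816 after sham surgery. Every TAC array lay above every sham array. The change was 1.08 ± 0.12 (adjusted p = 5.5e-07) in DKO hearts and 1.13 ± 0.12 (adjusted p = 4.7e-07) in CTL hearts.

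*Gpx3*, the secreted plasma peroxidase, measured 2232, 2741 and 3695 in TAC DKO hearts, against 1261, 1361, 1001 and 1504 in sham DKO hearts. In CTL hearts it measured 1493, 2242 and 2727 after TAC, against 839, 969.8, 913 and 1215 after sham surgery. The TAC and sham arrays of a genotype did not overlap, and the lowest TAC CTL array was at the level of the highest sham DKO array. The rises were 1.15 ± 0.15 (adjusted p = 4.1e-06) in DKO hearts and 1.16 ± 0.15 (adjusted p = 5.2e-06) in CTL hearts, the largest of any member in both comparisons.

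*Gpx7* and *Gpx8*, peroxidases of the endoplasmic reticulum, rose as well. *Gpx8* averaged 649 ± 62.8 in TAC DKO hearts and 418 ± 50.3 in sham DKO hearts, and 546 ± 29.2 in TAC CTL hearts and 345 ± 77.0 in sham CTL hearts (SD, n = 6 and 4). Its changes were 0.64 ± 0.11 (adjusted p = 1.2e-04) and 0.69 ± 0.11 (adjusted p = 6.5e-05). A second probe gave 0.59 ± 0.14 and 0.64 ± 0.14, both past the test, while a further bright probe gave -0.07 ± 0.12 and 0.16 ± 0.12 and did not pass. *Gpx7* rose by 0.58 ± 0.07 in DKO hearts (adjusted p = 2.3e-06) and 0.51 ± 0.07 in CTL hearts (adjusted p = 1.6e-05), with no overlap of arrays. With a common median per array *Gpx8* gave 0.16 and 0.22 and *Gpx7* 0.17 and 0.12, which did not pass. *Gpx4*, which reduces lipid hydroperoxides in membranes, rose by 0.49 ± 0.08 (adjusted p = 7.6e-05) and 0.38 ± 0.08 (adjusted p = 0.0014) on its brightest probe. Its next probe, also well above background, gave -0.35 ± 0.14 and -0.12 ± 0.14 without passing, and a common median per array turned the CTL value of the brightest probe to -0.0812.

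Catalase and the mitochondrial dismutase fell, and the extracellular dismutase rose. *Cat*, the catalase of peroxisomes, measured 310.1, 362 and 521 in TAC DKO hearts, against 1020.5, 881, 903 and 1180.4 in sham DKO hearts. CTL hearts had 293, 531 and 608 after TAC, against 1162, 935, 996 and 689 after sham surgery. All TAC arrays were below all sham arrays, and the lowest sham value was that of sham CTL replicate 4. The falls were -1.34 ± 0.18 (adjusted p = 5.6e-06) in DKO hearts and -0.96 ± 0.18 (adjusted p = 3.9e-04) in CTL hearts. A dimmer probe of *Cat* fell too, by -0.45 ± 0.09 and -0.41 ± 0.09.

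*Sod2*, the manganese dismutase of mitochondria, measured 4479.6, 4971 and 6888 in TAC DKO hearts, against 7542, 8747, 9703 and 9089.8 in sham DKO hearts. CTL hearts had *Sod2* at 4356, 6759 and 7601 after TAC, against 8359, 8709.5, 9290.2 and 10528 after sham surgery. The TAC and sham arrays of a genotype did not overlap, and in CTL hearts the gap between the highest TAC and the lowest sham array was small beside the spread within each group. The changes were -0.71 ± 0.14 (adjusted p = 3.8e-04) and -0.55 ± 0.14 (adjusted p = 0.0056). *Sod3*, the dismutase of the extracellular space, went the other way, with 119.9, 156 and 190.1 in TAC DKO hearts, against 88.1, 103, 89.6 and 81.7 in sham DKO hearts. In CTL hearts it measured 100.2, 138 and 155 after TAC, against 91.2, 92.4, 92.2 and 81.0 after sham surgery. No arrays overlapped within a genotype, but 2 TAC CTL arrays were close to the sham level. The rises of *Sod3* were 0.76 ± 0.12 (adjusted p = 4.7e-05) and 0.52 ± 0.12 (adjusted p = 0.0028). With a common median per array the CTL value of *Sod3* was 0.22 and did not pass. *Sod1*, the cytosolic copper-zinc dismutase, did not pass on its bright probe, at -0.14 ± 0.10 (adjusted p = 0.34) and -0.02 ± 0.10 (adjusted p = 0.93), while 2 probes near background were lower after TAC and passed.

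**Figure D2:**
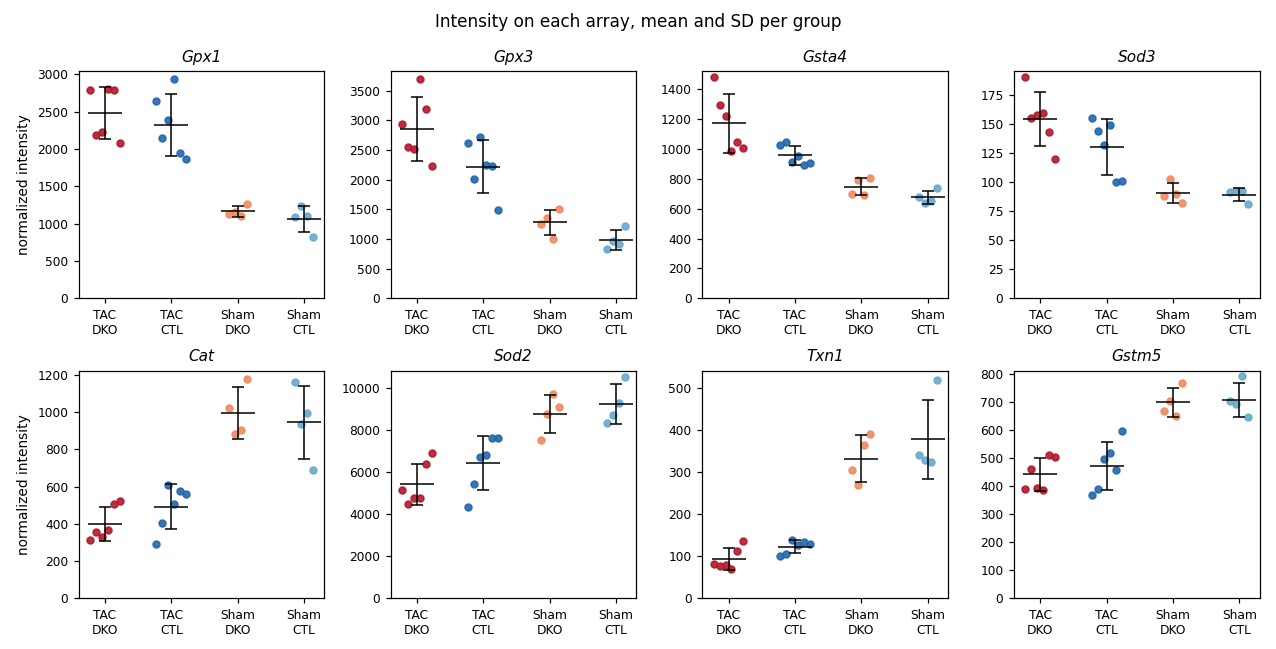
Normalized intensity (y axis, from 0) of 8 members on each array in TAC DKO (n = 6), TAC CTL (n = 6), sham DKO (n = 4) and sham CTL hearts (n = 4); points are arrays, bars mean and SD. In *Gpx1*, *Gpx3*, *Gsta4* and *Sod3* the TAC arrays of a genotype lie above its sham arrays, and in *Cat*, *Sod2*, *Txn1* and *Gstm5* below them.

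The peroxiredoxins and thioredoxins split. *Txn1*, cytosolic thioredoxin, had the largest fall of all members. It measured 70.2, 80.0 and 135 in TAC DKO hearts, against 304, 269, 365 and 392 in sham DKO hearts. In TAC CTL hearts it measured 101, 128 and 138, against 341, 328, 324 and 519.8 in sham CTL hearts, the highest of these being replicate 4. TAC and sham arrays were far apart in both genotypes, at -1.87 ± 0.16 (adjusted p = 1.2e-08) and -1.61 ± 0.16 (adjusted p = 1.6e-07). The other 2 *Txn1* probes were near background, where one gave -0.14 ± 0.05 and -0.12 ± 0.05 and the other 0.10 ± 0.05 and 0.10 ± 0.05. *Txn2*, the mitochondrial thioredoxin, fell by -0.44 ± 0.07 (adjusted p = 7.5e-05) and -0.39 ± 0.07 (adjusted p = 4.4e-04), with no overlap of arrays.

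Among the peroxiredoxins, *Prdx1* (cytosolic) measured 3036, 3386 and 4909 in TAC DKO hearts, against 5404, 5726, 5436 and 6115 in sham DKO hearts. *Prdx1* in CTL hearts was at 3237, 4671 and 5333 after TAC, against 5316, 5745, 5404 and 5303 after sham surgery. The DKO arrays did not overlap, and in CTL hearts 1 TAC array reached the sham values. *Prdx1* fell in DKO hearts (-0.64 ± 0.12, adjusted p = 3.9e-04), and the CTL value of -0.29 ± 0.12 did not pass (adjusted p = 0.1). For *Prdx1* the test of a different TAC effect between genotypes did not pass (adjusted p = 0.94), so the effects are not shown to differ. A dimmer *Prdx1* probe fell in both, by -0.59 ± 0.11 and -0.60 ± 0.11. *Prdx3*, the mitochondrial peroxiredoxin, gave -0.21 ± 0.16 (adjusted p = 0.36) and 0.15 ± 0.16 (adjusted p = 0.57), and sham CTL replicate 4 held its lowest value on any array, 881.

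*Prdx4*, a peroxiredoxin of the endoplasmic reticulum, averaged 1166 ± 117 in TAC DKO hearts and 805 ± 62.6 in sham DKO hearts, and 1015 ± 91.5 in TAC CTL hearts and 759 ± 43.6 in sham CTL hearts. It rose by 0.53 ± 0.08 (adjusted p = 1.6e-05) and 0.42 ± 0.08 (adjusted p = 3.8e-04), and a common median per array turned the CTL value to -0.0752. *Prdx2*, abundant in red blood cells, rose by 0.37 ± 0.07 (adjusted p = 3.2e-04) and 0.31 ± 0.07 (adjusted p = 0.0027) on its brightest probe. Without sham CTL replicate 4 the CTL change was 0.20 (adjusted p = 0.015). Both values turned negative under a common median per array, to -0.0949 and -0.15, and the dimmest *Prdx2* probe fell, as described with the other disagreeing probes.

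Most glutathione S-transferases did not pass. Of the 22 genes 3 rose and 3 fell in DKO hearts, and 2 rose and 3 fell in CTL hearts, with medians of 0.02 and 0.01. *Gsta4*, which conjugates the lipid peroxidation product hydroxynonenal, measured 984, 1135 and 1482 in TAC DKO hearts, against 701, 792, 695 and 808 in sham DKO hearts. *Gsta4* in CTL hearts was at 891, 936 and 1045 after TAC, against 678, 639, 654 and 737 after sham surgery. Every TAC array lay above every sham array, with changes of 0.63 ± 0.09 (adjusted p = 1.6e-05) and 0.50 ± 0.09 (adjusted p = 3.4e-04). Its values with a common median per array were 0.15 and 0.01, which did not pass. *Gstm5* measured 386, 427 and 512 in TAC DKO hearts, against 669, 703, 649 and 768 in sham DKO hearts. In TAC CTL hearts it measured 368, 476 and 595, against 703, 692, 790.1 and 644 in sham CTL hearts. All TAC arrays lay below all sham arrays, at -0.67 ± 0.11 (adjusted p = 7.3e-05) and -0.60 ± 0.11 (adjusted p = 3.2e-04).

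*Gstm1* fell along with it, to 773 ± 168 in TAC DKO hearts, against 1133 ± 57.3 in sham DKO hearts (-0.58 ± 0.14, adjusted p = 0.0029). In CTL hearts *Gstm1* averaged 788 ± 128 after TAC and 1305 ± 149 after sham surgery (-0.74 ± 0.14, adjusted p = 4.0e-04), without overlap. *Gsta1* fell by -0.48 ± 0.17 (adjusted p = 0.037) and -0.51 ± 0.17 (adjusted p = 0.033), with overlapping arrays, and neither passed any longer when some single arrays were left out. *Gstz1*, which also acts in tyrosine breakdown, rose in DKO hearts (0.37 ± 0.09, adjusted p = 0.0025) and gave 0.19 ± 0.09 in CTL hearts (adjusted p = 0.13). *Gsto1* rose in CTL hearts (0.42 ± 0.14, adjusted p = 0.029), where sham CTL replicate 4 held the lowest value, and gave 0.17 ± 0.14 in DKO hearts (adjusted p = 0.38). Without that array the CTL change was 0.26 (adjusted p = 0.16), and a common median per array gave -0.0494, while for *Gstz1* in DKO hearts it gave -0.12. *Gsto2*, near background, rose in DKO hearts by 0.26 ± 0.07 (adjusted p = 0.0082).

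The Gstm, Gsta and Gstp genes are families of close copies, and a probe of 1 copy can bind the RNA of another, so values of single copies in these families are uncertain. *Gstm2*, a brightly read class mu transferase, had 3 bright probes. They gave 0.28 ± 0.10, 0.38 ± 0.08 and 0.24 ± 0.09 in DKO hearts, where the second passed (adjusted p = 0.0014), and 0.01 ± 0.10, 0.07 ± 0.08 and 0.12 ± 0.09 in CTL hearts, where none passed. *Gsta3*, *Gstm7*, *Gstt1*, *Gstt2* and *Gstt3* were clearly above background and did not pass on their brightest probes.

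Glutathione synthesis was read through *Gclm* and *Gclc*. *Gclm* measured 201, 260.2 and 270.0 in TAC DKO hearts, against 167, 205, 186 and 249.8 in sham DKO hearts. In TAC CTL hearts it measured 232, 291 and 393, against 182, 225, 192 and 169 in sham CTL hearts. The CTL arrays did not overlap and *Gclm* rose there by 0.59 ± 0.12 (adjusted p = 0.0011), while the DKO arrays overlapped and 0.33 ± 0.12 did not pass (adjusted p = 0.051). With a common median per array the CTL value was 0.14 and did not pass. The interaction was not past the test (adjusted p = 0.94). *Gclc* was near background and fell by -0.26 ± 0.06 in CTL hearts (adjusted p = 0.0048), with -0.14 ± 0.06 in DKO hearts (adjusted p = 0.12). The CTL fall of *Gclc* no longer passed in 1 of 28 other settings. *Nqo1*, a quinone reductase and a classical Nfe2l2 target, rose by 0.61 ± 0.16 in CTL hearts (adjusted p = 0.0084) and 0.44 ± 0.16 in DKO hearts (adjusted p = 0.049). Sham CTL replicate 4 held the lowest *Nqo1* value of its group, without which the CTL change was 0.36 (adjusted p = 0.044), and a common median per array gave 0.14 (adjusted p = 0.61). The DKO value no longer passed in 22 of 30 other settings and turned to -0.0393 under a common median. A second *Nqo1* probe near background fell, by -0.27 ± 0.09 and -0.40 ± 0.09.

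The regulators were read as follows. *Nfe2l2* measured 87.8, 99.3 and 121 in TAC DKO hearts, against 165, 151, 151 and 119 in sham DKO hearts. In TAC CTL hearts it measured 91.0, 107 and 119, against 164, 154, 163 and 91.2 in sham CTL hearts. Sham CTL replicate 4 was as low as the lowest TAC arrays and the other 3 sham CTL arrays lay above all of them. *Nfe2l2* fell on its brightest probe by -0.55 ± 0.13 in DKO hearts (adjusted p = 0.0033) and by -0.39 ± 0.13 in CTL hearts (adjusted p = 0.04). The CTL fall no longer passed in 8 of 30 other settings, among them when any of 6 arrays was left out. Without sham CTL replicate 4 it was -0.59 (adjusted p = 1.9e-04). A dimmer *Nfe2l2* probe, not clearly above background, did not pass in DKO hearts. *Keap1* rose on its brightest probe, by 0.37 ± 0.06 (adjusted p = 5.0e-05) and 0.30 ± 0.06 (adjusted p = 6.8e-04), and its next probe fell. With a common median per array the brightest probe was lower after TAC, at -0.11 in DKO hearts (adjusted p = 0.18) and -0.18 in CTL hearts, where it passed as a fall (adjusted p = 0.029). Of the genes whose windows hold the element core, *Gclm* rose in CTL hearts, *Gstm5* and *Nfe2l2* fell in both genotypes, *Prdx1* fell in DKO hearts, and *Sod1*, *Gsta3* and *Gstm7* did not pass.

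Probes of the same gene disagreed after TAC (plot of the probes of a gene). On 7 member genes 2 or more probes were clearly above background, and in 2 of them, *Keap1* and *Prdx2*, probes passed in opposite directions, in DKO hearts and in CTL hearts. The second *Keap1* probe measured 263, 299.9 and 356 in TAC DKO hearts, against 438, 463, 439 and 491 in sham DKO hearts. Its change was -0.60 ± 0.09 (adjusted p = 1.3e-05), and in CTL hearts -0.58 ± 0.09 (adjusted p = 2.9e-05), with no overlap of arrays. The dimmest *Prdx2* probe averaged 71.9 ± 12.2 in TAC DKO hearts and 122 ± 4.22 in sham DKO hearts (-0.77 ± 0.11, adjusted p = 7.2e-06). In CTL hearts it averaged 80.7 ± 7.54 after TAC and 129 ± 17.5 after sham surgery (-0.67 ± 0.11, adjusted p = 6.1e-05). This *Prdx2* probe cleared the level of 89.6 only through its sham arrays, since both TAC means lay below it.

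*Gstk1*, a mitochondrial and peroxisomal transferase, did not pass on its brightest probe (0.08 ± 0.10 in DKO hearts and -0.15 ± 0.10 in CTL hearts). Its other probe measured 1136, 1375 and 1894 in TAC DKO hearts, against 2858, 3073, 3142 and 2953 in sham DKO hearts. In TAC CTL hearts that probe measured 1004, 1578 and 2291, against 3112, 3129, 3265 and 4054 in sham CTL hearts. There the TAC arrays all lay below the sham arrays, at -1.05 ± 0.16 (adjusted p = 2.4e-05) and -1.13 ± 0.16 (adjusted p = 1.3e-05). *Gstp1*, the main class pi transferase, gave 0.07 ± 0.11 and 0.07 ± 0.11 on its brightest probe, and -0.66 ± 0.10 (adjusted p = 1.7e-05) and -0.61 ± 0.10 (adjusted p = 6.8e-05) on the next. Over all 2080 genes with 2 or more such probes, probes passed in opposite directions in 12.4% in DKO hearts and 9.13% in CTL hearts after TAC, and in 0 of them between genotypes, where no more than 24 of the 2080 had any probe that passed, against 1739 and 1561 after TAC. Which transcript each probe reads was not examined.

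**Figure D3:**
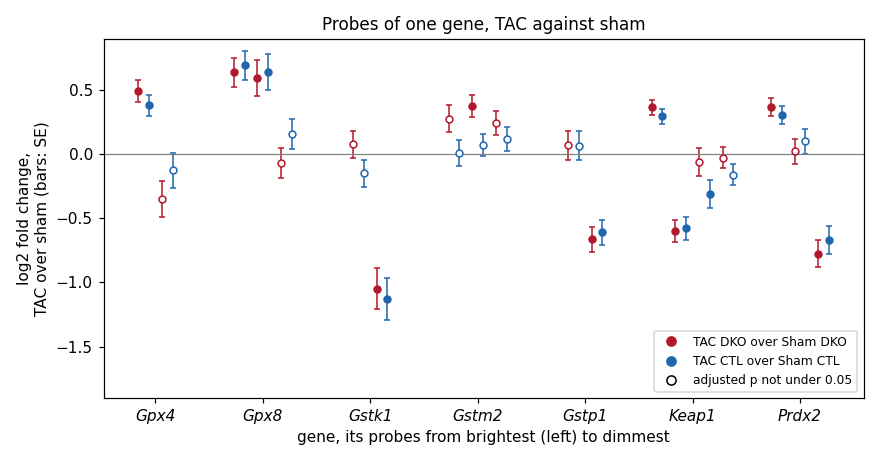
Log2 fold change of TAC over sham hearts (y axis, bars are SE) for each probe clearly above background of the 7 member genes with several such probes (x axis, brightest probe left), DKO hearts in red and CTL hearts in blue (n = 6 TAC and 4 sham arrays each); open points did not pass. *Keap1* and *Prdx2* each have a probe that rose and a probe that fell, and their rises turn negative under a common median per array. The *Prdx2* probe that fell cleared the background level only through its sham arrays.

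Other genes of the pathway were taken from a list of 113, of which 106 had a probe. In DKO hearts 37 rose and 22 fell after TAC, and in CTL hearts 26 rose and 20 fell. The shares that passed, 55.7% in DKO hearts and 43.4% in CTL hearts, were above those of all probes (28% and 22%) and below those of probes clearly above background (59.8% and 51.9%). Of the named genes, *Glrx3* (a glutaredoxin) averaged 201 ± 33.7 in TAC DKO hearts and 760.5 ± 10.7 in sham DKO hearts (-1.94 ± 0.11), and 231 ± 34.3 in TAC CTL hearts and 774 ± 25.6 in sham CTL hearts (-1.76 ± 0.11). *Glrx2*, its mitochondrial relative, fell by -1.68 ± 0.14 and -1.52 ± 0.14. *Idh2*, a mitochondrial source of NADPH, averaged 4505 ± 1112 in TAC DKO hearts and 12221 ± 447 in sham DKO hearts (-1.47 ± 0.15), and 5325 ± 1140.1 in TAC CTL hearts and 12409 ± 905 in sham CTL hearts (-1.25 ± 0.15). Malic enzyme *Me1*, also a source of NADPH, fell by -1.64 ± 0.13 and -1.31 ± 0.13. *Txndc12* fell by -1.42 ± 0.10 and -1.26 ± 0.10, *Ftl1* (ferritin light chain) by -1.38 ± 0.13 and -1.18 ± 0.13, and *Esd*, which releases glutathione from its formaldehyde adduct, by -1.15 ± 0.10 and -0.94 ± 0.10. *Ephx1*, an epoxide hydrolase, rose by 1.14 ± 0.10 and 0.98 ± 0.10, and *Hagh*, a glyoxalase, by 1.09 ± 0.08 and 0.98 ± 0.08. *Aldh1l2* fell by -0.99 ± 0.18 and -0.74 ± 0.18. All 10 genes passed in DKO hearts and in CTL hearts, and they were named by the size of their change, which was not recomputed under other scalings.

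Markers of several cell types moved with TAC. The summed level of the 6 cardiomyocyte markers measured ranged from 66603 to 79729 in TAC DKO hearts, against 90187 to 96292 in sham DKO hearts, and from 67503 to 83849.7 in TAC CTL hearts, against 88454 to 96319 in sham CTL hearts. Of these, 1 rose and 5 fell in DKO hearts and 4 fell in CTL hearts. The 3 red blood cell markers all rose, with sums of 23015 to 27382 in TAC DKO hearts, against 12501 to 22135 in sham DKO hearts, and of 19293 to 24378 in TAC CTL hearts, against 7385 to 17056 in sham CTL hearts. Of 5 leukocyte markers 4 fell in DKO hearts and 2 in CTL hearts, with sums of 618 to 849 in TAC DKO hearts, against 1569 to 1877 in sham DKO hearts, and of 614 to 976 in TAC CTL hearts, against 1183 to 1933 in sham CTL hearts. Their median change was only -0.28 in DKO hearts and -0.17 in CTL hearts. The largest falls were -1.84 and -1.58, so the sums do not show a fall of that size in every marker. Of 7 fibroblast markers 2 rose and 2 fell in DKO hearts, and 3 rose and 1 fell in CTL hearts. Their sums overlapped, at 7213 to 9746 in TAC DKO hearts, against 8304 to 10251 in sham DKO hearts, and at 7985 to 11745 in TAC CTL hearts, against 7787 to 9989 in sham CTL hearts. Of 5 smooth muscle markers 4 rose in DKO hearts and 3 in CTL hearts. Intensities have no true 0, and the part of these cells in the changes of the antioxidant genes was not tested.

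Between genotypes few members stood out. In TAC hearts 0 of the 82 probes were called in DKO against CTL hearts, against 0.144% of all probes, and 1 passed, against 0.316%. In sham hearts 0 were called, against 0.102%, and 0 passed, against 0.119%. The interaction of genotype and surgery had 0 calls, against 0.00221%. At an unadjusted p under 0.05 (limma) 18 probes stood in TAC hearts, 22% of the members against 8.99% of all probes. Of the 46 brighter members 26.1% did, against 16.6% of all probes clearly above background. In sham hearts 12 members did, 14.6% against 5.55%, or 19.6% against 9.63% among those clearly above background, and for the interaction 2, 2.44% against 4.71%. The probe that passed was the brightest of 3 probes of *Gstm6*, at a mean below the level taken as clearly above background. It measured 82.6, 94.4 and 102 in TAC DKO hearts, against 68.0, 69.9 and 80.8 in TAC CTL hearts. In sham DKO hearts it measured 86.6, 86.8, 79.1 and 77.7, against 69.5, 68.5, 75.8 and 70.4 in sham CTL hearts. No DKO array overlapped a CTL array of the same surgery, and the differences were 0.36 ± 0.06 after TAC (adjusted p = 0.0048) and 0.22 ± 0.08 after sham surgery (adjusted p = 0.73). The other *Gstm6* probes gave 0.16 ± 0.07 and 0.08 ± 0.07 after TAC and did not pass, and the mean of the 3 probes gave 0.20 (adjusted p = 0.22).

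*Gstp2*, a class pi transferase next to *Gstp1*, had the largest genotype difference of all members in both surgeries. It measured 157, 243 and 285 in TAC DKO hearts, against 116, 161 and 183 in TAC CTL hearts. In sham DKO hearts it measured 377, 219, 295 and 295, against 207, 172, 206 and 111 in sham CTL hearts. The sham arrays did not overlap, although sham CTL replicate 4 was the lowest of its group, and the TAC arrays overlapped. The differences of 0.54 ± 0.16 after TAC (adjusted p = 0.25) and 0.78 ± 0.20 after sham surgery (adjusted p = 0.26) did not pass. Among the members higher in DKO hearts *Gpx3* came next, at 0.37 ± 0.14 (adjusted p = 0.42) after TAC and 0.38 ± 0.17 (adjusted p = 0.86) after sham surgery, with overlapping arrays. *Gpx8* gave 0.30 ± 0.12 after sham surgery (adjusted p = 0.86) and 0.25 ± 0.10 after TAC (adjusted p = 0.47). After TAC its DKO and CTL arrays did not overlap, while after sham surgery they did. A further bright *Gpx8* probe gave 0.33 ± 0.13 after sham surgery without overlap (adjusted p = 0.81). After TAC that probe gave 0.10 ± 0.10 with overlap (adjusted p = 0.82). At the lower end *Txn1* gave -0.43 ± 0.15, *Gstm4* -0.39 ± 0.14 and *Gsta3* -0.33 ± 0.18 after TAC, and *Gstt1* -0.30 ± 0.18, *Gstm2* -0.29 ± 0.09 on its second probe and *Gsta1* -0.28 ± 0.19 after sham surgery, none of which passed.

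With the genotype difference averaged over both surgeries, a contrast added after the data were seen, 2 member probes passed, against 0.479% of all probes, and 1 was called, against 0.144%. *Gstp2* was higher in DKO hearts by 0.66 ± 0.13 (adjusted p = 0.012) and *Gstm6* by 0.29 ± 0.05 (adjusted p = 0.0029). Both kept passing when any of the 20 arrays was left out, with *Gstp2* between 0.56 and 0.73. The other 2 *Gstm6* probes did not pass there, at 0.15 ± 0.06 (adjusted p = 0.44) and 0.14 ± 0.05 (adjusted p = 0.42). *Gpx3* gave 0.37 ± 0.11 (adjusted p = 0.19) and *Gpx8* 0.27 ± 0.08 (adjusted p = 0.19), and neither passed. *Gstp1* averaged 1285 ± 89.6 in TAC DKO hearts and 1112 ± 107 in TAC CTL hearts, and 1223 ± 19.0 in sham DKO hearts and 1082 ± 247 in sham CTL hearts, and did not pass in either surgery. Because the mutation targets DNA methyltransferases, the 120 bases before the start of both genes are shown with their CpG sites in capitals, 7 before *Gstp2* and 13 before *Gstp1*, on the minus strand of chromosome 19. In the 300-base windows *Gstp2* held 12 CpG sites and *Gstp1* 20, beside medians of 13 over member windows and 7 over all windows. *Gstp3* held 5 there, and the windows of *Gstm6* held 9, 5 and 4. Methylation of these sites was not measured on these arrays.
*Gstp2* (chr19:4042222-4042341, minus strand): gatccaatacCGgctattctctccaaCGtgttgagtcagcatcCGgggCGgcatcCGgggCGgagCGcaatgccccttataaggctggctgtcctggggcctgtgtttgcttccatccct
*Gstp1* (chr19:4037913-4038032, minus strand): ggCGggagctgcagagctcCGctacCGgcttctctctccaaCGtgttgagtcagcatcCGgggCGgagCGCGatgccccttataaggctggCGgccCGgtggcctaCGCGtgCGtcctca

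**Figure D4:**
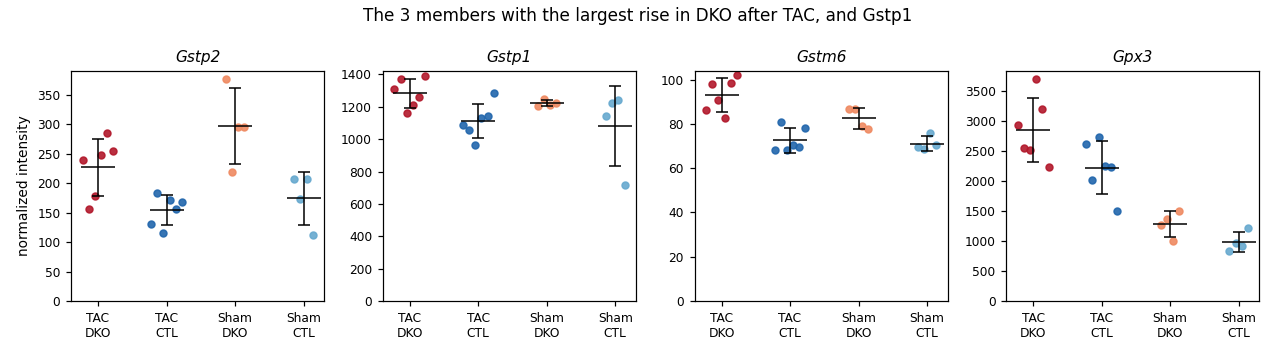
Normalized intensity (y axis, from 0) of *Gstp2*, *Gstp1*, *Gstm6* (near background) and *Gpx3* on each array in TAC DKO (n = 6), TAC CTL (n = 6), sham DKO (n = 4) and sham CTL hearts (n = 4); points are arrays, bars mean and SD. In *Gstm6* the DKO arrays lie above the CTL arrays of the same surgery without overlap, in *Gstp2* only in sham hearts, and the *Gstp1* and *Gpx3* arrays overlap.

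Between genotypes 0 of the cardiomyocyte, fibroblast, endothelial, smooth muscle, leukocyte, red blood cell, adipocyte and atrial markers passed in TAC or sham hearts. All 4 atrial markers were nevertheless above CTL in DKO hearts. Their median difference after TAC was 0.75, from 0.17 to 1.42, with 2 at an unadjusted p under 0.05, and after sham surgery 0.25, from 0.03 to 1.18, with 1. The largest in sham hearts was *Nppa*, at 1.18 ± 0.35 (adjusted p = 0.48). The study measured *Nppa* by qPCR as a general marker of heart failure in the ventricle. There it rose strongly with TAC and did not differ significantly between genotypes, so a sum that includes it may not mark atrial cells alone. The summed atrial level ran from 24528 to 35519 in TAC DKO hearts, against 8883 to 32826 in TAC CTL hearts, and from 7558 to 17959 in sham DKO hearts, against 2884 to 8129 in sham CTL hearts. Its part in the genotype differences of the antioxidant genes was not tested. The other pathway genes had 0 passes between genotypes as well. At an unadjusted p under 0.05 stood 17 of 106 in TAC hearts (16%, against 8.99% of all probes and 16.6% of those clearly above background) and 7 in sham hearts (6.6%, against 5.55% and 9.63%).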

How the data were processed

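The authors measured left ventricular total RNA of 20 mice on Illumina bead arrays and processed the arrays in GenomeStudio 2010.3, per the submitters' processing notes. The deposited table holds linear intensities of 45281 probes, and the background step is not given in the sources used here. Sorted values were equal within 0.2% for at least 99.95% of ranks within the TAC set and 99.77% within the sham set, but for 0.404% between a TAC and a sham array, so the authors had quantile normalized these sets apart. The sets differ in surgery, and the 2 cannot be told apart.

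Groups came from the sample labels, and no per-sample column was left out. The deposited intensities were log2 transformed with no constant added and quantile normalized over all 20 arrays. With limma 3.58.1 (R 4.3.3) each probe received a linear model of 4 group means (16 residual and 6.64 prior degrees of freedom) and gave the genotype difference in TAC and sham hearts, the TAC effect in DKO and CTL hearts, and their interaction. P-values were adjusted over all probes. Calls needed an adjusted p under 0.05 and a fold over 1.5, the thresholds of the array methods. Probes naming several genes were not used, and 34885 probes name 1 gene. Symbols brought up to date gave the same 82 probes. The fit was tested on simulated data.

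Named members are those that passed in any comparison, the 3 largest rises and falls of each comparison among the 70 member probes above the array median on at least 4 arrays, and the main enzymes of each family. Pathway genes outside the rule are named where they passed, at most 10 by size of change. The members, the gene lists and the markers were chosen with earlier results of these data known. Alternatives were the values as deposited, a common median per array, only the groups compared, an added constant of 16, a filter on dim probes, a variance trend, the replicate number as a block, the mean of the probes of a gene, and each array left out. The level of 89.6 for dim probes, the fit without TAC DKO replicates 2 and 3, the contrast averaged over surgery and the check of probes of the same gene were added after the data were seen. Promoter sequences are those of RefSeq, GRCm38.p6.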

Additional observations from a re-analysis of the deposited data

Results flagged for a closer look

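Of 140 combinations of a group of arrays with a gene, taken over the 34 genes clearly above background and *Gstm6*, 10 had an array far from the rest of its group by Dixon's test, and chance flags about 1 in 20 groups. Sham CTL replicate 4 accounted for 4 of them. It read *Gstm7* at 98.7 (other arrays of the group 169 to 182), *Nfe2l2* at 91.2 (others 154 to 164) and *Sod3* at 81.0 (others 91.2 to 92.4), all low, and *Txn1* at 520 (others 324 to 341), high. Among the TAC DKO arrays, replicate 1 read *Gpx7* at 233 (others 188 to 201), replicate 4 read *Gpx8* at 769 (others 587 to 649), and replicate 2 read *Gclm* low at 201 (others 254 to 270.0). Replicate 6 of the TAC CTL group was high in *Gstm7* at 148 (others 125 to 132) and in *Prdx3* at 2101 (others 1557 to 1733). In the sham DKO group replicate 4 read *Keap1* at 463 (others 403 to 412).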

How the results depend on the processing

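The 45 gene results that passed were recomputed in 1329 alternatives, of which 1252 still passed in the same direction, 64 no longer passed and 13 reversed, and 19 results passed in the same direction throughout. With a common median per array, 23 members were called in CTL hearts after TAC (2 higher, 21 lower) and 23 in DKO hearts (2 higher, 21 lower), and 3 passed higher and 43 lower in each. A common median moves bright TAC probes down relative to quantile normalization, which favours falls over rises. That scaling reversed, in CTL hearts, *Gsto1* (-0.0494), *Gpx4* (-0.0812), *Prdx2* (-0.15), *Prdx4* (-0.0752) and *Keap1* (-0.18, which passed as a fall), and, in DKO hearts, *Gstz1* (-0.12), *Nqo1* (-0.0393), *Prdx2* (-0.0949) and *Keap1* (-0.11). The mean of the probes of a gene reversed *Prdx2* (-0.0877) and *Keap1* (-0.12) in CTL hearts and *Prdx2* (-0.13) and *Keap1* (-0.0440) in DKO hearts. Values as deposited shifted the median of all probes by 0.29 in DKO and 0.28 in CTL hearts and gave 30 members higher and 22 lower in DKO hearts and 30 higher and 21 lower in CTL hearts. There 6 of the 45 gene results no longer passed. Without the fold threshold 39 members stood in DKO hearts and 36 in CTL hearts after TAC, and 1 between genotypes in TAC hearts. Leaving out 1 array gave 14 to 19 calls in DKO hearts, 11 to 18 in CTL hearts and 0 in the other comparisons. In CTL hearts *Nfe2l2* no longer passed without sham CTL replicates 1, 2 or 3 or TAC CTL replicates 1, 2 or 4, *Gsta1* without sham CTL replicates 1 or 4 or TAC CTL replicates 1 or 4, and *Gsto1* without sham CTL replicate 4 or TAC CTL replicate 4. In DKO hearts *Gsta1* did not pass without sham DKO replicates 2 or 4 or TAC DKO replicates 1, 4 or 5. The replicate numbers were not taken as pairs in the main fit. Same-numbered arrays correlated at 0.051 on average, from -0.219 to 0.447, against -0.011 on average for arrays of other numbers. Of the 20 arrays 9 correlated best with their own number, and these values do not settle whether the numbers mark pairs. With the replicate number as a block, 19 members were called in DKO hearts, 16 in CTL hearts and 0 in the other comparisons. The causes were not tested. Signal over background limits what the 11 genes with no probe above 89.6 can show.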
